A study of Homo sapiens with 4 samples.

Results

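The guanylate-binding protein genes GBP1 to GBP7 were followed in Hut78, an established cell line derived from a cutaneous lymphoma of T cells. Total RNA was measured on 4 Affymetrix human transcriptome arrays. The control group was 2 arrays of untreated Hut78 cells, and the ribavirin group was 2 arrays of Hut78 cells kept in ribavirin, a guanosine analogue used against viruses, at 50 µM for 120 h. All cells grew in RPMI medium with serum, and the labels name no time for the control and do not say whether the arrays of a group came from separate cultures, so p-values reflect the scatter among these 4 arrays, and that scatter may be only technical. The members were the rows for whole transcripts whose gene symbol was GBP1 to GBP7. Each of the 7 genes had 1 such row, and together they were 7 of 25847 genes compared. The family was chosen because its members were already known to lie higher with ribavirin in these arrays, so the changes of GBP1 to GBP7 between the groups are given as descriptions, without a test.

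Guanylate-binding proteins are large GTPases of the dynamin superfamily, made in small amount by resting cells and in large amount after interferon gamma. They bind and hydrolyse GTP, assemble on the surface of bacteria and on the vacuoles of intracellular parasites, and recruit further defence proteins there. Their genes lie side by side on chromosome 1. The promoters of interferon-induced genes commonly carry an interferon-stimulated response element (ISRE), which interferon regulatory factors such as IRF1 bind, or a gamma-activated site (GAS), which activated STAT dimers bind. In T cells interferon gamma is both a product and a signal that the cells can receive.

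Promoter sequences are shown first so that the letters these neighbouring genes share can be read directly. RefSeq promoters (GRCh38.p14, minus strand for GBP1, GBP3, GBP4 and GBP7, plus strand for GBP6) run from 250 bases before to 50 bases after the annotated start and were matched for 5 of the 7 members, GBP1 (chr1:89065159-89065458), GBP3 (chr1:89022817-89023116), GBP4 (chr1:89198893-89199192), GBP7 (chr1:89175954-89176253) and GBP6 (chr1:89363809-89364108). Capitals mark each match to the ISRE core (GAAA, any 2 bases, GAAA) or to the GAS motif TTCNNNGAA, both searched on both strands, and a match is a description of the letters only.
GBP1: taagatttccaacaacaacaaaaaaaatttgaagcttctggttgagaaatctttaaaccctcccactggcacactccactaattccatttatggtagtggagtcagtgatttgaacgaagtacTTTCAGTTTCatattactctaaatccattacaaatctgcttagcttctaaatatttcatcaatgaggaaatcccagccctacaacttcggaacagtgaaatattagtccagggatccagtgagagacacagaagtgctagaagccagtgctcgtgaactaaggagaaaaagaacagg
GBP3: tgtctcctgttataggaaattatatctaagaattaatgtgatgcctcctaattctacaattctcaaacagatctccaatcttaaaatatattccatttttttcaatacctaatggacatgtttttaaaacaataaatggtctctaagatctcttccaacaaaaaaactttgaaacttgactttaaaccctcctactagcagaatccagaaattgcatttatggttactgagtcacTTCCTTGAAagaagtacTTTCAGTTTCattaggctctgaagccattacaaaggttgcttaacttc
GBP4: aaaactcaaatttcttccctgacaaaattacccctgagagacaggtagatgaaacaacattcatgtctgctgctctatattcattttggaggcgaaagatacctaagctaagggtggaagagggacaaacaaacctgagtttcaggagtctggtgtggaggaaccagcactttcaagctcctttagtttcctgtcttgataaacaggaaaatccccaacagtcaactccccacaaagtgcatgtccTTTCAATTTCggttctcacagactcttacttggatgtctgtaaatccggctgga
GBP7: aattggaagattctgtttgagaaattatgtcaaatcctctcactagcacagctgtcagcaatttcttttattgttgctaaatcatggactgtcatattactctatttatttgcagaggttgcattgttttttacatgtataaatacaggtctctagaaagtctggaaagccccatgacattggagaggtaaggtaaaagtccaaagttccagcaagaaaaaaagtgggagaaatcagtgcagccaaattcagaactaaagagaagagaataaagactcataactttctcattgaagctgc
GBP6: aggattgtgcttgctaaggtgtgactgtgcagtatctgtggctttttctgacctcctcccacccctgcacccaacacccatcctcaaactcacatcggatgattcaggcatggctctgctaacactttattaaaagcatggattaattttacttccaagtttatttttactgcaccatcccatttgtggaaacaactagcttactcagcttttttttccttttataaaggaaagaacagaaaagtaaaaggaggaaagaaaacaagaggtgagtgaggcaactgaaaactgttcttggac

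The promoters of GBP1, GBP3 and GBP4 each held 1 ISRE core, and those of GBP7 and GBP6 held neither motif in this window. Over all 35116 promoters of the same length, 3.57% held the ISRE core and 7.66% the GAS motif. In GBP1 the match read TTTCAGTTTC and lay 127 to 118 bases before the start. GBP3 had the same letters, TTTCAGTTTC, at bases 3 to 12 of the transcript, and in addition the one GAS match, TTCCTTGAA, 15 to 7 bases before the start. In GBP4 the match was TTTCAATTTC and spanned the start, from 4 bases before it to base 6 of the transcript. The longest run common to the GBP1 and GBP3 promoters was 19 bases, gaagtacTTTCAGTTTCat, with the ISRE core in capitals. It lay 134 to 116 bases before the start of GBP1 but from 5 bases before to base 14 of the transcript of GBP3. The same stretch is therefore placed differently against the 2 annotated starts. Outside the family, promoters were matched for 21 genes induced mainly by interferon gamma, and 14 of their promoters held the ISRE core. For 22 antiviral genes induced mainly by type I interferon 21 promoters held it, and for 10 genes next to the GBP cluster 0 did. Each promoter of a gene was counted, so these counts are not shares of the genes. The number of promoters searched per list is not given, so they are not set against the 3.57% either.

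Values are log2 probe set summaries, and a mean at or below the highest of 23 background probe sets (5.20 in the control arrays, 4.95 in the ribavirin arrays) is called within the background range, where changes are compressed. Levels of different genes are not compared, since their probes differ. GBP1, which binds lipopolysaccharide on bacteria and starts the protein coat there (TC01002847.hg.1), read 9.56 and 9.50 in the control arrays and 14.43 and 14.31 in the ribavirin arrays. GBP5, which promotes inflammasome activation in mice and hinders furin in human cells (TC01002850.hg.1), read 9.55 and 9.46 in control and 13.999 and 13.803 with ribavirin. For both genes the ribavirin arrays were far above the controls, and the arrays of each group lay close together. GBP1 thus differed by 4.85 (SE 0.08), or 28.7-fold, and GBP5 by 4.40 (SE 0.10), or 21.1-fold.

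GBP2, which shares the furin-directed activity of GBP5 and follows GBP1 onto bacteria (TC01006361.hg.1), read 5.17 and 4.89 in control and 9.23 and 9.26 with ribavirin. Its control mean of 5.03 ± 0.20 (SD, n = 2) was within the background range, and its ribavirin arrays were well clear of it. The difference of 4.21 (SE 0.11), 18.5-fold, is therefore measured from the floor of the scale. GBP4, also recruited to the coat on bacteria (TC01002849.hg.1), read 10.10 and 9.97 in control and 13.80 and 13.68 with ribavirin. Both control arrays were above the background range, and the difference was 3.70 (SE 0.09), 13.0-fold. GBP3, likewise a member of that coat (TC01002845.hg.1), read 5.83 and 6.06 in control and 8.39 and 8.65 with ribavirin. Its difference of 2.57 (SE 0.13), 5.96-fold, was smaller than that of GBP4, although both started above the background range.

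GBP7 (TC01006362.hg.1) read 4.07 and 4.27 in control and 5.20 and 5.13 with ribavirin. GBP6 (TC01000835.hg.1) read 3.42 and 3.54 in control and 4.38 and 4.35 with ribavirin. Both genes were dim: GBP6 stayed within the background range in both groups, and GBP7 left it only with ribavirin, by a small margin. Their differences were 0.997 (SE 0.09), 1.996-fold, for GBP7 and 0.89 (SE 0.08), 1.85-fold, for GBP6.

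**Figure D1:**
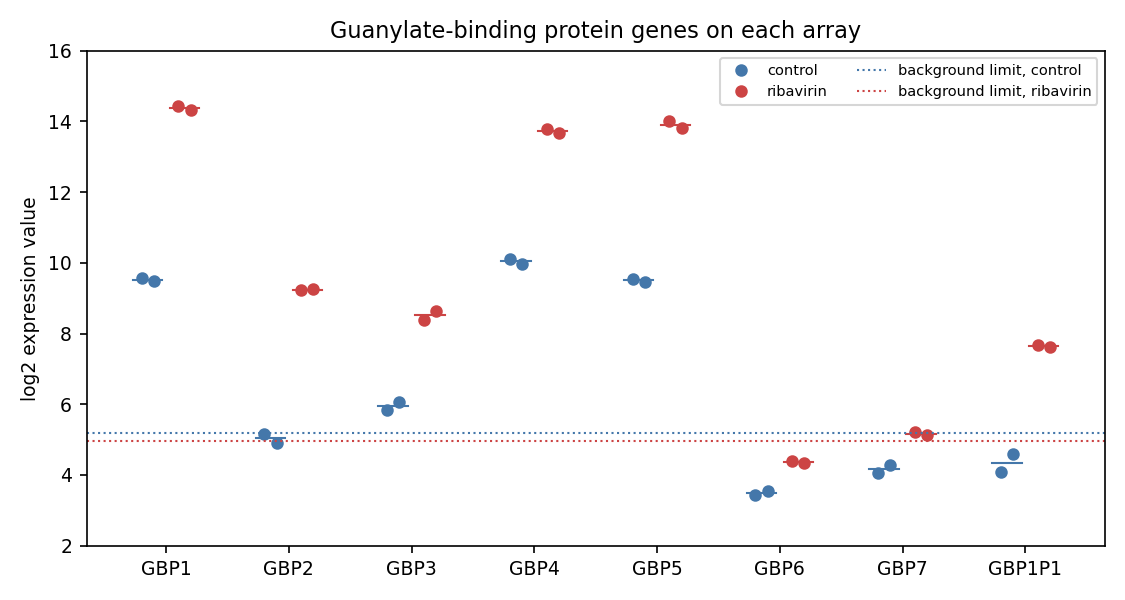
Log2 expression value (vertical axis) of GBP1 to GBP7 and the pseudogene GBP1P1 on each array. Points are arrays, short bars are group means and dotted lines are the highest background probe set of each group. All ribavirin points lie above the control points of the same gene, while both GBP6 groups lie under the dotted lines.

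In 7 of 7 members both ribavirin arrays lay above both control arrays, a pattern found in 24.1% of all genes. A difference of at least 4-fold upward was reached by 5 of 7 members and by 34 genes in all, 0.132% of those compared. Since the family was chosen on this contrast, nothing is read from either count. The median difference over GBP1 to GBP7 was 3.70, with a range of 0.89 to 4.85, against -0.05 over all genes. Ranked by the upward difference among all genes, GBP1 stood at 3, GBP5 at 5, GBP2 at 6, GBP4 at 7, GBP3 at 21, GBP7 at 432 and GBP6 at 567.

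The members fell into steps when the smallest and the largest difference between any control and any ribavirin array were taken for each. For GBP1 these were 4.75 and 4.94, which did not overlap the 4.26 to 4.54 of GBP5. GBP5 and GBP2 (4.06 to 4.37) overlapped, so their order is not resolved. GBP4 followed at 3.58 to 3.82 and GBP3 at 2.33 to 2.82, each apart from its neighbours. GBP7 (0.86 to 1.13) and GBP6 (0.81 to 0.96) overlapped. The steps of GBP2, GBP6 and GBP7 start within the background range and may be compressed. All these ranges rest on 2 arrays per group and on different probes, so they order the readings and not the responses of the genes.

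**Figure D2:**
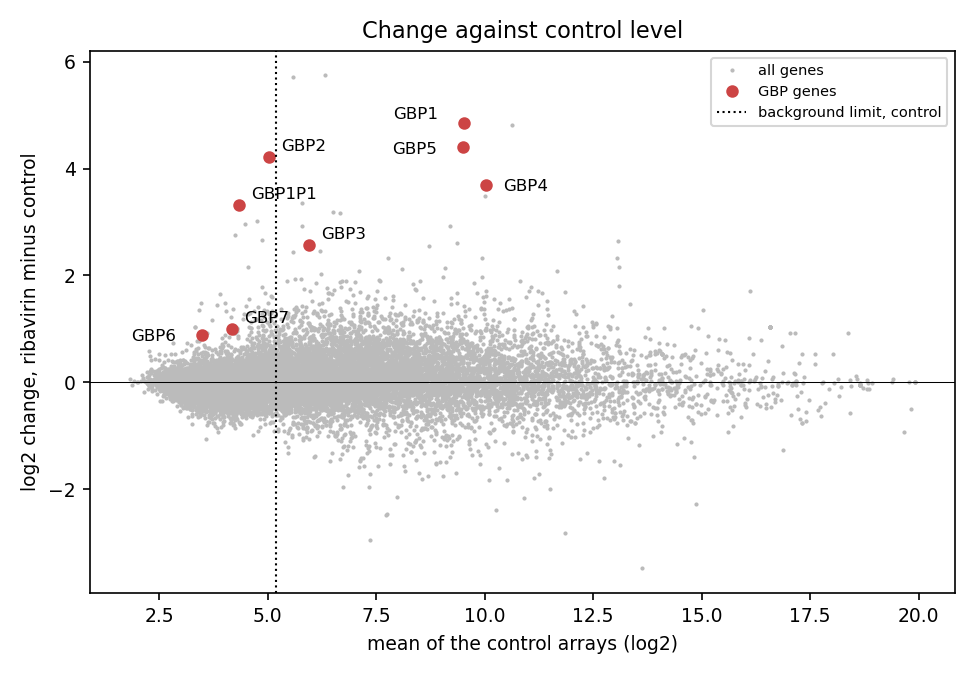
Log2 change with ribavirin (vertical axis) against the mean of the control arrays (horizontal axis, log2) for 25847 genes in grey and the GBP genes in red. The dotted line is the highest background probe set in control. GBP1, GBP5 and GBP4 start near 10 on the log2 scale, whereas GBP2, GBP1P1, GBP7 and GBP6 start left of the line.

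The pseudogene GBP1P1 (TC01000836.hg.1), the one other row whose symbol began with GBP and a digit, read 4.10 and 4.59 in control and 7.69 and 7.63 with ribavirin. Its control arrays were within the background range and differed from each other more than those of any member, and the difference with ribavirin was 3.32 (SE 0.17), 9.95-fold. The files hold no probe sequences, so how far signal is shared between GBP1P1, GBP1 and the other near relatives was not tested. A row without a symbol, described in the file as linc-GBP5-2 and picked out after its values were seen, read 3.13 and 3.20 in control and 3.12 and 3.03 with ribavirin, within the background range throughout.

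The order of the genes along the chromosome (RefSeq names) ran GBP3, GBP1, GBP2, GBP7, GBP4, GBP5, GBP6 and GBP1P1. The dim GBP7, with a difference of 0.997, thus sits between GBP2 and GBP4, whose differences were 4.21 and 3.70. Of 10 neighbouring genes outside the family, 9 were measured, and 4 rose, 0 fell and 5 did not pass (limma, Benjamini-Hochberg adjusted p under 0.05 over all genes; at an unadjusted p under 0.05, 5 rose and 0 fell). For the unadjusted threshold no share over all genes is given, here or for the lists below. At the adjusted threshold 9.34% of all genes rose and 5.88% fell. That is 61.3% of calls upward, or 49.3% after quantile normalization anew and 73.7% after median centring. The numbers behind these shares, 2413 rises and 1521 falls, dropped to 22 and 4 when control replicate 1 was left out, 22 and 5 for control replicate 2, 831 and 354 for ribavirin replicate 1 and 1430 and 571 for ribavirin replicate 2. A group left with 1 array has no scatter of its own, so the scatter of the other group stands for both. Counts from such fits, here and below, are therefore not comparable with those from all 4 arrays. GTF2B, the general transcription factor that places RNA polymerase II at promoters, read 6.41 and 6.36 in control and 7.65 and 7.46 with ribavirin, a rise of 1.17 (SE 0.09, limma adjusted p = 0.00369). ZNF326 rose by 0.74, LRRC8D, a subunit of volume-regulated anion channels, by 0.58 and the kinase PKN2 by 0.39. CCBL2, the kynurenine aminotransferase gene next to GTF2B and the measured neighbour nearest to GBP3, changed by -0.11 without passing, and LRRC8B, the neighbour on the far side of GBP1P1, by 0.15 without passing. The neighbours' median was 0.33, and their differences ran from -0.18 to 1.17. With an array left out the count of rises was 0 (control replicate 1), 0 (control replicate 2), 1 (ribavirin replicate 1) or 2 (ribavirin replicate 2).

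**Figure D3:**
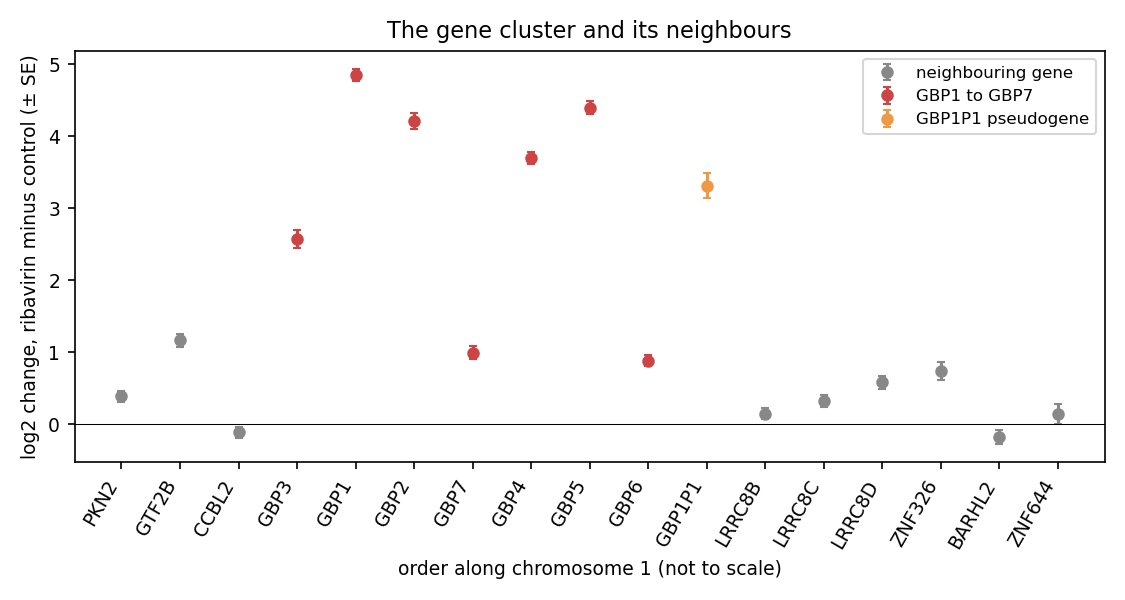
Log2 change with ribavirin, with its SE from the fit over all genes as error bars, for the GBP genes and their measured neighbours in their order along chromosome 1 (not to scale). The neighbours lie between -0.18 and 1.17, and GBP7 and GBP6 lie in that range while the other GBP genes lie above it.

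The signalling that normally drives GBP genes was described with a list of 16 genes for interferon gamma, its receptor, kinases, transcription factors and inhibitors. Of these 10 rose, 0 fell and 6 did not pass (at an unadjusted p under 0.05 the limma counts were also 10 and 0). The rises were 62.5% of the list, against 9.34% rising and 5.88% falling over all genes. The median was 0.47 against -0.05 over all genes. This list and the others were chosen with earlier results of these data known, so their counts and p-values are descriptions. IFNG, the cytokine itself, read 3.77 and 4.03 in control, within the background range, and 5.40 and 5.70 with ribavirin, a rise of 1.65 (SE 0.14, limma adjusted p = 0.00411). IRF1, a direct activator of GBP promoters, read 6.10 and 5.97 in control and 7.498 and 7.609 with ribavirin, a rise of 1.52 (SE 0.09, limma adjusted p = 0.00222). For both genes the groups did not overlap. STAT2, which works mainly in type I interferon signalling, rose by 0.70 and the receptor chain IFNGR1 by 0.50, while IFNGR2 differed by -0.08 without passing. Of the kinases, JAK2 rose by 0.73 from a control mean within the background range, and JAK1 differed by 0.08 without passing. Among genes listed as inhibitors, PTPN2 rose by 0.62 and PTPN11 by 0.44. The feedback inhibitors SOCS1 (2.36 in both groups) and SOCS3 (4.002 and 3.928) were within the background range. Leaving out control replicate 1 or control replicate 2 left 1 rise in each case, and leaving out ribavirin replicate 1 left 5.

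Genes induced mainly by interferon gamma, with the GBP genes left out, were higher in most cases. This list too was chosen with earlier results known, so its counts and p-values only describe it. Of its 30 genes 19 (63.3%) passed upward and 1 (3.33%) downward, against 9.34% and 5.88% of all genes (23 and 1 at an unadjusted p under 0.05 by limma). The median was 0.62. WARS, the tryptophanyl-tRNA synthetase, rose by 3.48 (limma adjusted p = 4.15e-04), the chemokine CXCL10 by 3.01, the peptide transporter TAP1 by 2.61 and the adhesion molecule ICAM1 by 1.89. CXCL10 read 4.66 and 4.84 in control, within the background range, and 7.84 and 7.68 with ribavirin. The immunoproteasome subunit PSMB9 rose by 1.04, from 6.01 to 7.06. CIITA, the activator of class II genes, was the 1 that fell, by 0.84 (limma adjusted p = 0.00545). IDO1, which degrades tryptophan, and the chemokine CXCL11 stayed within the background range in both groups and did not pass, as did SECTM1, BATF2 and FCGR1A. The count of rises was 3 without control replicate 1 and 3 without control replicate 2, with 0 falls in each.

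Antiviral genes induced mainly by type I interferon went both ways: of 28, 7 rose, 6 fell and 15 did not pass. Their median was 0.00. Rises and falls each made up a larger share of this list than of all genes, where 9.34% rose and 5.88% fell. At an unadjusted p under 0.05 by limma the counts were 8 upward and 10 downward. XAF1, which antagonises an apoptosis inhibitor, rose by 1.90, IFI6 by 1.35, the RNA sensor IFIH1 by 1.06 and the RNA-dependent kinase EIF2AK2 by 1.05. The membrane proteins IFITM2 (-1.27) and IFITM1 (-1.02), which hinder virus entry, and the OAS-like gene OASL (-1.03) fell, with limma adjusted p values of 0.00293, 0.00276 and 0.00276. The dynamin-like GTPase MX1 differed by -0.13 and did not pass. The median here was close to that of all genes, and whether these genes moved less than those induced mainly by interferon gamma was not tested. Rises and falls of this list both became fewer with any 1 array left out.

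**Figure D4:**
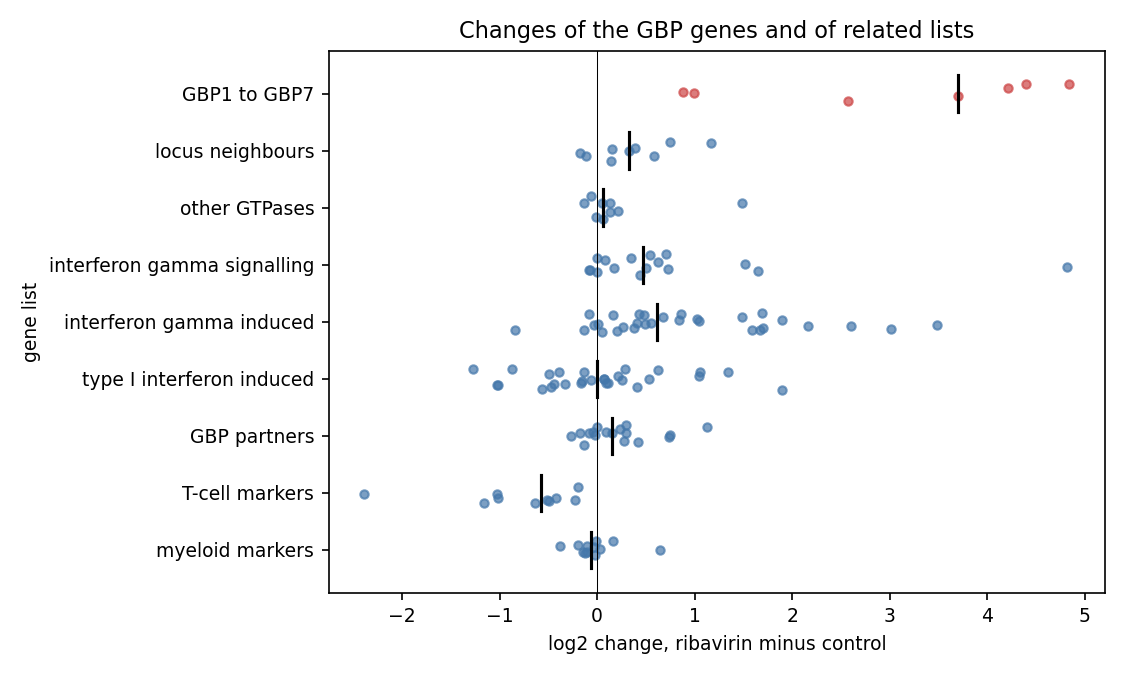
Log2 change with ribavirin (horizontal axis) of GBP1 to GBP7 in red and of the genes of each list in blue, with a black bar at each list's median. The median is 3.70 for the GBP genes, 0.62 for genes induced mainly by interferon gamma, 0.00 for genes induced mainly by type I interferon and -0.58 for T-cell markers. The scatter up and down within a list has no meaning.

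Of 9 other GTPases related by family or by induction, 1 rose, 0 fell and 8 did not pass (2 and 0 at an unadjusted p under 0.05 by limma). The median was 0.06. Rises were 11.1% of this list and 9.34% of all genes, so nothing about these GTPases is read from the count. The 1 that rose was GVINP1, a pseudogene of the very large interferon-inducible GTPases, which read 6.15 and 6.37 in control and 7.83 and 7.67 with ribavirin, a rise of 1.49 (SE 0.11, limma adjusted p = 0.00317). The atlastins ATL1, ATL2 and ATL3, which fuse tubules of the endoplasmic reticulum and belong to the same superfamily, differed by 0.06, 0.21 and 0.13. Of the 9 genes 6 were within the background range in both groups, ATL1, ATL3, MX2, IRGM, IRGC and IRGQ, so a small difference there does not show a lack of change. GVINP1 did not pass without control replicate 1 or without control replicate 2, where the count was 0.

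GBP1, GBP2 and GBP5 end in a CaaX box, to which a lipid is attached, and GBP coats lead to activation of caspase-4. Of 18 genes for CaaX lipidation and processing and for inflammasomes 17 were measured, and 3 rose, 0 fell and 14 did not pass. The median was 0.16 (8 rose and 1 fell at an unadjusted p under 0.05 by limma, a threshold for which no share over all genes is given). At the adjusted threshold the rises were 17.6% of the measured genes, against 9.34% of all genes. PGGT1B, a subunit of the prenyl transferase that modifies GBP2 and GBP5, rose by 1.13 (SE 0.11, limma adjusted p = 0.00514), from 6.86 on both control arrays to 8.13 and 7.86. CASP4, the caspase that binds lipopolysaccharide, rose by 0.75, from 7.71 and 7.79 to 8.57 and 8.43. AIM2, a DNA sensor, rose by 0.74 from a control mean within the background range. FNTA, another prenyl transferase subunit, differed by 0.30 and did not pass, and FNTB was not measured. GSDMD, the pore protein cut by caspase-4, differed by 0.23 without passing, and NLRP3, IL1B and IL18 were within the background range in both groups. With each array centred on its median 5 rose, with dim genes left out 6 rose, and without control replicate 1 or without control replicate 2 the count was 0.

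The genes whose pattern over the 4 arrays was nearest to a member's were found by the Euclidean distance between profiles after each gene's own mean was subtracted, a measure that follows mainly the size of the change. PTGS2, the inducible cyclooxygenase, was among the 2 nearest to GBP1, at a distance of 0.88. The other, not reported here, lay closer to GBP1 than GBP5 did (0.45). WARS was among the 2 nearest to GBP2 (0.74), GBP5 (0.95) and GBP4 (0.29), and RGS1, a regulator of G-protein signalling, was the other for GBP4 (0.36). The calcium pump ATP2B1 (0.19) and the integrin adaptor FERMT2 (0.19) were nearest to GBP3. IL31RA, a cytokine receptor subunit, and the thioesterase ACOT13 were nearest to GBP7, at 0.04 and 0.05. By the same measure the distances among GBP1 to GBP7 ran from 0.13 (GBP7 and GBP6) to 3.96 (GBP6 and GBP1), and GBP5 and GBP2 lay 0.28 apart.

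The labelled cell type was checked with 10 T-cell markers. CD3D, CD3E and CD3G, parts of the T-cell receptor complex, had control means of 11.84, 11.11 and 11.45, and CD2 was within the background range in both groups. CD5, a coreceptor that dampens receptor signals, fell by 2.39, CD3G by 1.16, the kinase LCK by 1.03 and CD4 by 1.02, from 5.56 to 4.54, within the background range. Of the 10, 0 rose and 8 fell (0 and 9 at an unadjusted p under 0.05 by limma), with a median of -0.58, and their part in the GBP differences was not tested. These falls were 80.0% of the list, against 5.88% of all genes. The falls numbered 1 when either control array was left out, 4 without ribavirin replicate 1 and 5 without ribavirin replicate 2. Of 12 markers of myeloid cells, another cell type rich in guanylate-binding proteins, 11 were within the background range in control and 10 with ribavirin, CD14, LYZ and CSF1R among them. Their summed log2 level was 45.9 to 47.2 in control and 46.1 to 46.4 with ribavirin. Of these markers 1 rose, CD68 by 0.64, and 0 fell (1 and 2 at an unadjusted p under 0.05 by limma), and CD68 did not pass with any of the 4 arrays left out. That 1 rise is 8.33% of the list, near the 9.34% of all genes. All 9 endothelial markers were within the background range in both groups, with sums of 34.6 to 35.6 in control and 33.5 to 33.96 with ribavirin, and 1 of them, ENG, fell by 0.44 with all arrays but not with any of the 4 left out. In bulk RNA a change per cell and a change in the share of cells that express a gene cannot be told apart. Gene medians ran from 4.24 to 4.30 over the control arrays and from 4.20 to 4.21 over the ribavirin arrays, and the number of arrays limits the precision.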

How the data were processed

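Hut78 RNA was hybridised to 2 control and 2 ribavirin arrays, grouped by sample title. The authors deposited log2 values summarised per probe set with SST-RMA, as the table's name says, and Affymetrix Expression Console and RMA are named per the submitters' processing notes; for versions and filters: not given in the sources used here. A second deposited table was identical (largest difference 0 over 70523 probe sets). Of 67528 transcript clusters, 33444 had 1 symbol, and the brightest stood for each of 25847 genes, of which 62.4% had control means within the background range. Groups were compared over all genes with limma 3.58.1 in R 4.3.3 (lmFit, eBayes, 2 residual and 3.19 prior degrees of freedom), two-sided, with Benjamini-Hochberg adjustment. The steps were tested on simulated data. The members and the gene lists were chosen with earlier results of these data known. Named were all members, other GBP rows, up to 4 passing genes with the smallest p in each list and all in a list's rarer direction, the 2 genes nearest in pattern to each member above background, and any signalling gene; further list genes were named after their values were seen. Some genes that these rules pick are not reported here. Alternatives were quantile normalization, median centring, leaving out genes under the median level, averaging clusters, an intensity trend, robust moderation, the array number as a block, a threshold of 0.01 and leaving out each array.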

Additional observations from a re-analysis of the deposited data

How the results depend on the processing

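The median difference over GBP1 to GBP7 stayed between 3.61 and 3.76 in every alternative that held all 7; leaving out arrays gave 3.63 to 3.76. GBP1 ran from 4.76 to 4.91, GBP5 from 4.30 to 4.496, GBP2 from 4.07 to 4.35, GBP4 from 3.61 to 3.76, GBP3 from 2.45 to 2.70, GBP7 from 0.90 to 1.10 and GBP6 from 0.82 to 0.96. GBP6 was dropped where genes under the median level were left out. No label ties arrays of the same number, and the differences between replicates of both groups correlated at r = 0.05 across genes; with the array number as a block 2093 genes rose and 1247 fell against 2413 and 1521 without it, and no list count moved by over 1.5 times. At an adjusted p under 0.01, 894 genes rose and 420 fell, and rises numbered 5 in the signalling list, 1 among neighbours and 4 among type I genes. Rises among the GBP partners numbered 5 with arrays centred on their median and 6 with dim genes left out. With arrays left out in turn, with the lone array taken to be as variable as the other group's, all genes gave 22 to 1430 rises and 4 to 571 falls. The lists then gave 1 to 7 rises for signalling, 3 to 16 rises and 0 to 1 falls for interferon gamma, 0 to 5 rises and 0 to 5 falls for type I, 0 to 2 rises for neighbours, 0 to 1 for other GTPases and 0 to 3 for partners. Near the background range, changes of GBP2, GBP6 and GBP7 are limited by signal over background.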

Other observations

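Promoter motifs were set beside the calls for the 11947 genes outside the family that were measured and had 1 matched RefSeq promoter. Of these 11.0% rose and 5.59% fell. Among the 389 whose promoter held the ISRE core, 13.9% rose and 5.66% fell, and the median difference was -0.04, the same to 2 decimals as in the 11558 without it, of which 10.9% rose and 5.59% fell. Among the 892 with the GAS motif, 11.4% rose and 4.04% fell. The 49 promoters with both motifs had 8 rises and 4 falls. These shares were not tested, as genes are not independent replicates.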
